A study of Homo sapiens with 17 samples.

Results

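The genes described here were NFE2L2 and 8 genes tied to it in the response to oxidative stress: SQSTM1, NQO1, HMOX1, TXNRD1, GCLM, GCLC, SRXN1 and PRDX1. They were taken by name, for their known function, from 57638 genes with a transcript in the deposited files. Earlier results of these data were known at that choice. The estimated reads of all transcripts of each gene were summed. The 17 libraries were 3′ tag RNA profiles of K562, a human chronic myeloid leukaemia line. All cells had been electroporated with CRISPR plasmids, had received an antisense oligonucleotide that the labels do not name, and were processed on day 6. No library therefore shows untreated cells. Plasmids labelled with a human gene were meant to activate it, which does not apply to the labels Neg, GFP and RFP. In 4 libraries the plasmid label began with a number (20-ARSF, 21-CTPS2, 22-LAPTM4B and 23-GOLGA8N), and these are called prefixed. The 13 unprefixed libraries were GOLGA8N 1 and 2, LAPTM4B 1 and 2, TTR, TRPC5OS, E7, ADORA2A, UBE2V1, COL6A6, Neg, GFP and RFP. By plasmid gene, 23-GOLGA8N with GOLGA8N 1 and 2 made up the GOLGA8N arm, and 22-LAPTM4B with LAPTM4B 1 and 2 the LAPTM4B arm. Neg, GFP and RFP served as the control arm. The labels explain neither the prefix nor Neg or E7. They do not state separate cultures either, and the p-values therefore reflect library-to-library spread that may be technical.

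NFE2L2 encodes NRF2, a transcription factor that KEAP1 hands to the proteasome while the cell is unstressed. Oxidants and electrophiles modify KEAP1, NRF2 then accumulates, pairs with small MAF proteins and binds antioxidant response elements in the genes of glutathione synthesis, thioredoxin reduction, quinone reduction, heme breakdown and iron storage. SQSTM1 encodes p62, a receptor that brings ubiquitinated cargo to autophagosomes. It can also bind KEAP1 and so release NRF2, and is itself an NRF2 target. NRF2 is regulated mainly at the level of its protein, which these RNA data do not show.

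Libraries held 569057 to 4236396 estimated reads (median 3222049). GFP was the shallowest, and the next lowest held 2252097. A floor of 3 reads stood at 5.45 CPM (counts scaled to a fixed total of reads in genes) in GFP and at 0.733 to 1.38 CPM in the other libraries. All 136 pairs of libraries differed beyond counting error (chi-square over its degrees of freedom at least 7.46). The labels give the cell type as lymphoblasts. All 15 erythroid markers listed for K562 averaged at least 1 CPM, as did 1 of 5 B lymphoid and 1 of 5 T lymphoid markers. The B lymphoid markers summed to at most 5.62 CPM in a library, with MS4A1 and CD79B at 0 in all. The T lymphoid markers summed to 41.3 to 90.8 CPM in prefixed and 33.2 to 119 CPM in unprefixed libraries, with CD3E and CD2 at 0 in all.

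By median CPM over the 17 libraries, PRDX1 was highest at 805 CPM, followed by SQSTM1 at 166.5 CPM and NQO1 at 74.4 CPM. GCLM, TXNRD1, SRXN1 and NFE2L2 lay close together at 27.7, 22.9, 21.2 and 21.1 CPM, with ranges over the libraries that overlapped. GCLC had 8.30 CPM and HMOX1 had 0. The deposited TPM, which are scaled to transcript length, also put PRDX1, SQSTM1 and NQO1 first at medians of 622, 29.1 and 25.9 TPM and GCLC and HMOX1 last, while NFE2L2 moved from rank 7 to rank 4 at 3.47 TPM. PRDX1 varied least, with a coefficient of variation of 11.9%, against 24.8% for NQO1, 27.8% for SQSTM1 and 65.4% for GCLC.

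The question of the prefix comparison was whether these genes differed between the 4 prefixed and the 13 unprefixed libraries. SQSTM1 rose and was the only member to pass the test. It had 218, 289, 229 and 186.5 CPM in 23-GOLGA8N, 22-LAPTM4B, 21-CTPS2 and 20-ARSF, against 106 to 192.5 CPM (median 152) in the unprefixed libraries. In CPM the lowest prefixed library, 20-ARSF, lay just under the highest unprefixed one, GOLGA8N 2. The groups overlapped by this pair alone. In the deposited TPM they overlapped more widely. There 23-GOLGA8N, at 29.1 TPM, lay under COL6A6, GFP, Neg, TRPC5OS and LAPTM4B 2, at 29.45 to 36.3 TPM. In 20-ARSF the value was 31.1 TPM, under COL6A6, GFP and Neg. In 21-CTPS2 it was 35.96 TPM, just under COL6A6 at 36.26 TPM. Only 22-LAPTM4B, at 43.9 TPM, stood above all unprefixed libraries. The means were 231 ± 43.0 CPM (SD, n = 4) in prefixed and 150 ± 29.1 CPM (SD, n = 13) in unprefixed libraries, and the log2 fold change was 0.64 ± 0.143 (SE; edgeR adjusted p = 0.0377 over 12319 genes tested). SQSTM1 ranked 24 by p among all genes tested, of which 35 passed (0.284%), 29 of them higher (0.235%). Groups that did not overlap were found for 0.357% of all genes and for none of the members. Fewer cells with a transcript and less RNA per cell cannot be told apart in such bulk samples. An exact two-sided permutation test over libraries gave p = 0.00168 for SQSTM1, where 10.0% of all genes tested lay under 0.05, and no gene could pass after adjustment over all genes, the smallest such value being 0.23.

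The size of the SQSTM1 difference was stable in the fits on counts, and its call was not. Without each of 10 libraries in turn the edgeR adjusted p passed above 0.05. It was 0.378 without 22-LAPTM4B, 0.124 without 23-GOLGA8N and 0.109 without 21-CTPS2. It was 0.0602 without LAPTM4B 1, 0.0583 without Neg, 0.0568 without GOLGA8N 1, 0.0548 without UBE2V1, 0.0546 without ADORA2A, 0.054 without TTR and 0.0526 without RFP. The log2 fold change over all alternative fits on counts ran from 0.49 to 0.73, and the lower end came from leaving out 22-LAPTM4B. The permutation test's difference of mean log2 values ran from 0.405 to 0.623 over its alternatives, deposited TPM among them. The number of genes called also moved with single libraries, to 2 without 22-LAPTM4B, 7 without 23-GOLGA8N, 11 without 21-CTPS2, 23 without LAPTM4B 1, 22 without ADORA2A, and up to 102 without E7, a library whose removal left the SQSTM1 call in place.

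The prefix could also be compared within a plasmid gene. SQSTM1 had 218 CPM in 23-GOLGA8N, against 133 and 192.5 CPM in GOLGA8N 1 and 2. It had 289 CPM in 22-LAPTM4B, against 130 and 172 CPM in LAPTM4B 1 and 2. The prefixed library was thus above both unprefixed ones for either gene. The share of all genes with this order of libraries was not counted, so the order is a description only. The fit on these 6 libraries with plasmid gene as a term gave log2 0.72, which missed the threshold (edgeR adjusted p = 0.134). All of these libraries, 22-LAPTM4B among them, are also part of the prefix comparison above, so neither result is independent of it.

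**Figure D1:**
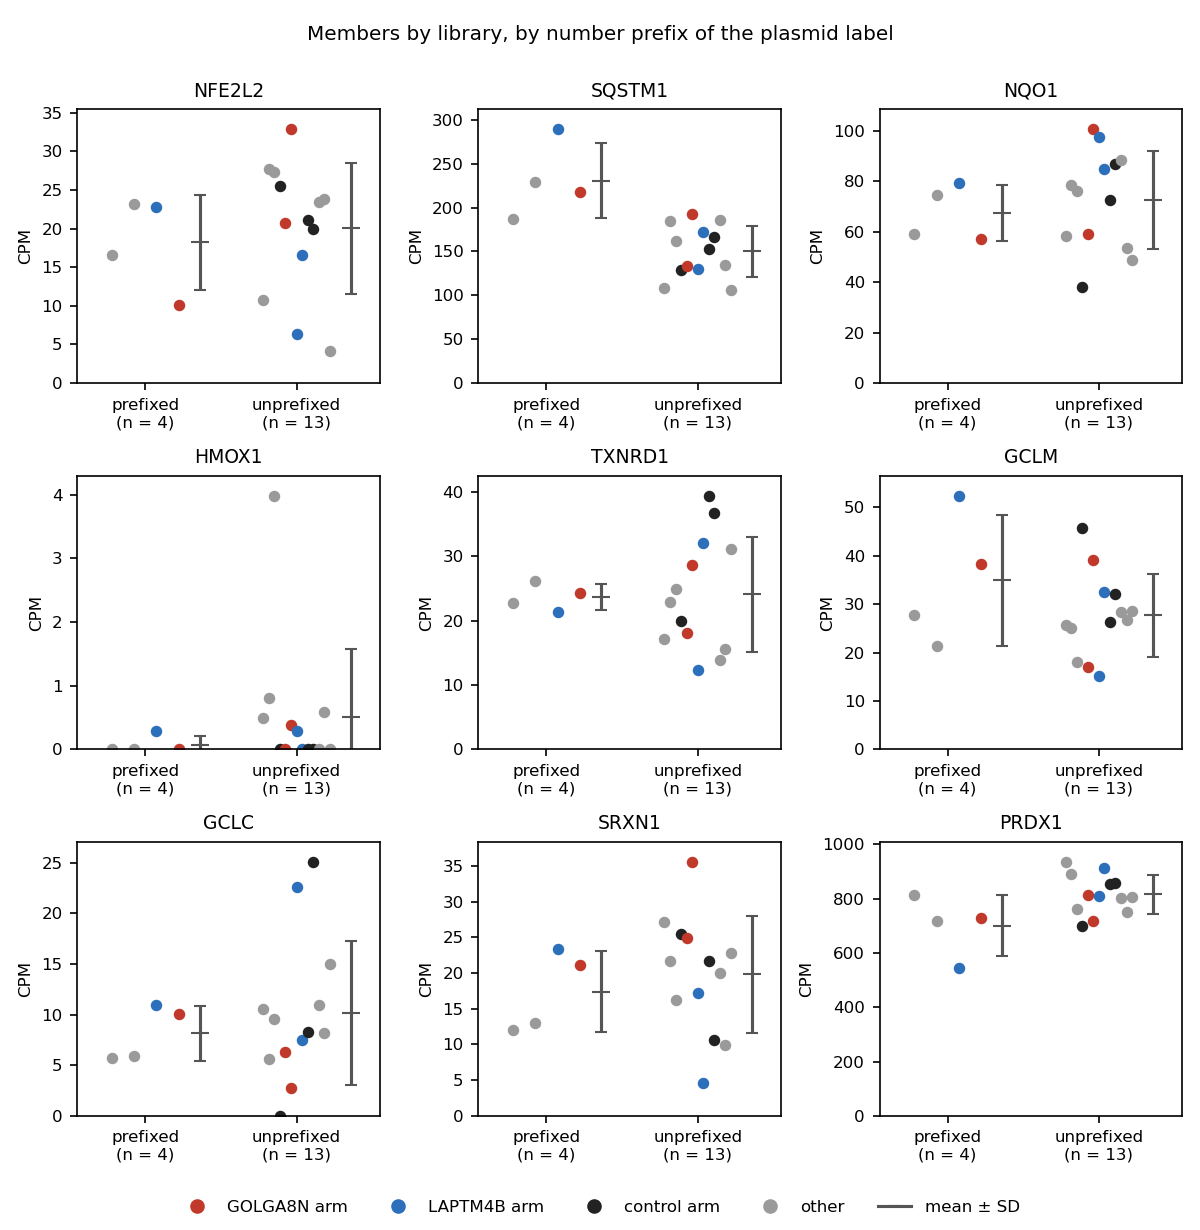
Level of each member in CPM (linear axis from 0) in the 4 prefixed and 13 unprefixed libraries, 1 point per library, coloured by arm, with mean ± SD beside each group. SQSTM1 lies at 186.5 to 289 CPM in prefixed and 106 to 192.5 CPM in unprefixed libraries, whereas the other members overlap widely and HMOX1 exceeds 1 CPM only in E7.

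Other measures moved with the prefix too. Reads in ribosomal protein genes took 24.59% to 25.32% of gene reads in prefixed and 21.74% to 24.45% in unprefixed libraries, without overlap. The 6 fibroblast markers summed to 21.2 to 38.1 CPM in prefixed and 40.0 to 64.3 CPM in unprefixed libraries. Of these, LUM was at 0 and COL3A1, DCN and PDGFRA averaged under 1 CPM. COL1A2 held most of the sum, at 20.7 to 35.2 CPM in prefixed and 32.7 to 62.6 CPM in unprefixed libraries, which overlapped. Neither COL1A2 (log2 -0.76 ± 0.202 SE, edgeR adjusted p = 0.105) nor COL1A1 (-0.44 ± 0.903 SE, edgeR adjusted p = 0.948) was called. The 5 monocyte and macrophage markers summed to 18.4 to 36.4 CPM and 21.4 to 48.5 CPM in prefixed and unprefixed libraries. Among them CD68 fell (log2 -1.50 ± 0.353 SE; edgeR adjusted p = 0.0493), and LYZ was at 0.30 ± 0.346 (SE). The 15 erythroid markers overlapped, at 7220 to 10400 CPM in prefixed and 6280 to 12200 CPM in unprefixed libraries. HBE1, the embryonic globin, rose by log2 0.83 ± 0.157 (SE; edgeR adjusted p = 0.0191). The other globins listed were not called, with HBG1 at 0.17, HBG2 at -0.18, HBZ at -0.16, HBA1 at -0.29 and HBA2 at -0.27. Median gene reads were 3105713 in prefixed and 3110350 in unprefixed libraries. The part of these measures in the SQSTM1 difference was not tested.

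SQSTM1 (ENSG00000161011) lies on GRCh38 chromosome 5 from 179806398 to 179838078, plus strand, and overlaps MGAT4B and MRNIP on the other strand. Of its 16 listed transcripts 8 received reads. SQSTM1-202, a coding transcript that runs to the gene's last base, held 59.7% of them, SQSTM1-213 held 28.5% and SQSTM1-201 held 5.97%. SQSTM1-202 took 64.5% to 76.1% of SQSTM1 reads in the prefixed libraries and 18% to 76.3% (median 53.5%) in the unprefixed ones. Its level was 163 ± 30.7 CPM (SD, n = 4) in prefixed and 78.3 ± 36.7 CPM (SD, n = 13) in unprefixed libraries, and that of SQSTM1-213 was 57.2 ± 14.5 and 48.2 ± 17.1 CPM. SQSTM1-201 had 0 reads in all 4 prefixed libraries and also in TRPC5OS, RFP, LAPTM4B 2 and E7. Its mean was 13.8 ± 18.3 CPM (SD, n = 13) in the unprefixed libraries, at a median of 1.63% and up to 34.2% of the gene. Neg and GOLGA8N 1 held the most of its reads, at 166 and 121. Their annotated ends lie at 179838078, 179837218 and 179837255, for SQSTM1-202, SQSTM1-213 and SQSTM1-201 in this order. The division of reads among them is the quantifier's estimate and was not tested.

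**Figure D2:**
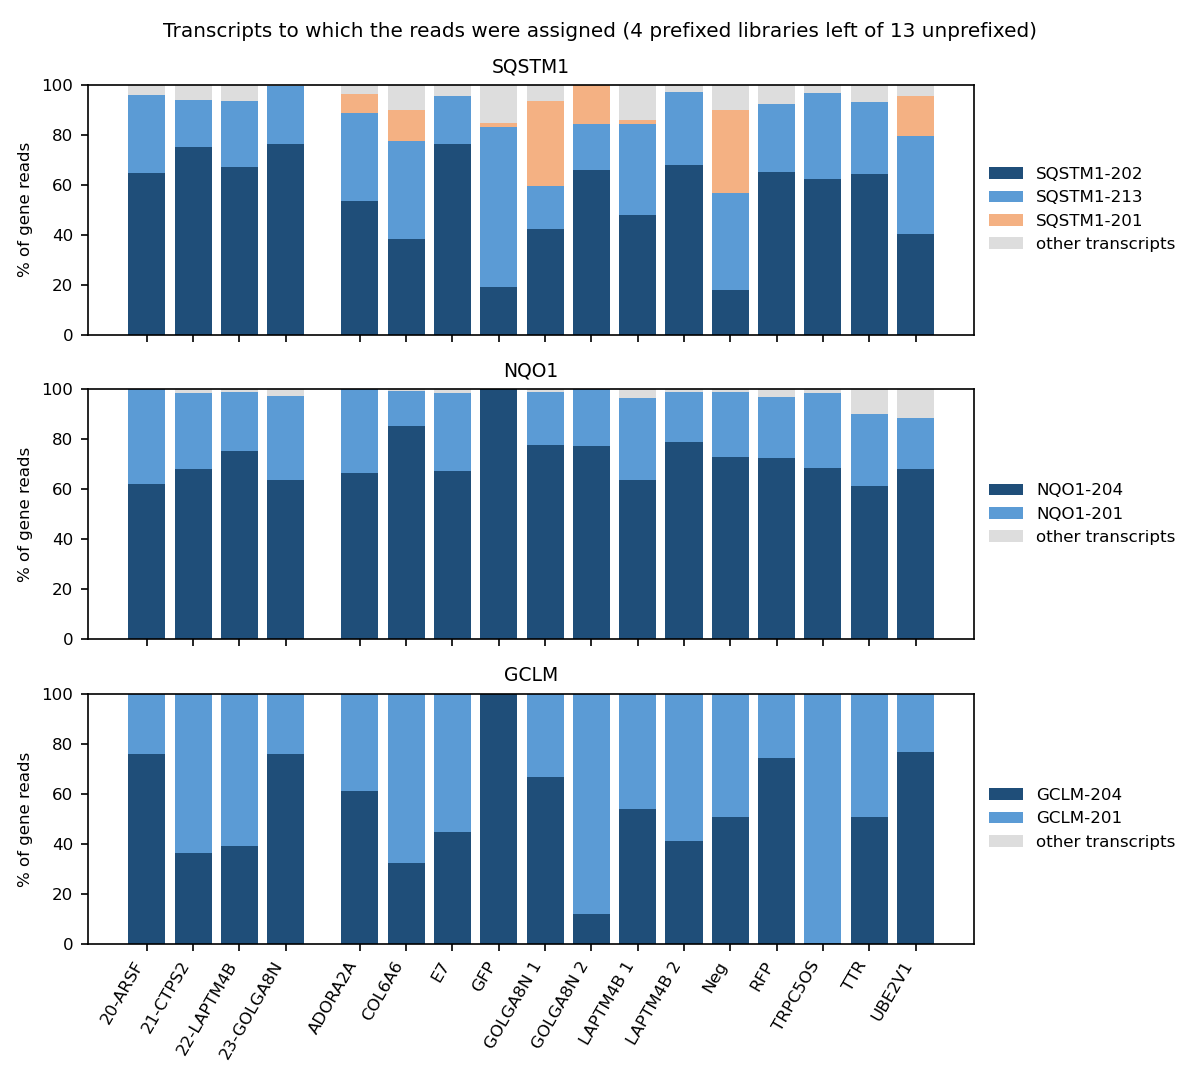
Share of each gene's estimated reads (percent, y axis) assigned to its leading transcripts in each library, with the 4 prefixed libraries left of the 13 unprefixed ones. SQSTM1-202 holds at least 64.5% in every prefixed library and 18% to 76.3% in the unprefixed ones, NQO1-204 leads in every library, and the shares of the GCLM transcripts range widely within both groups.

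NFE2L2 itself did not pass in any comparison. It had 10.1, 22.8, 23.2 and 16.6 CPM in 23-GOLGA8N, 22-LAPTM4B, 21-CTPS2 and 20-ARSF, against 4.17 to 32.9 CPM (median 21.1) in the unprefixed libraries. The prefixed values lay inside the unprefixed range, with UBE2V1 lowest and GOLGA8N 2 highest. The prefix fold change was log2 -0.09 ± 0.353 (SE; edgeR adjusted p = 0.971), with a 95% interval from -0.79 to 0.60. The gene (chromosome 2, 177227595 to 177392697, minus strand) had 967 reads in all, of which NFE2L2-206 held 77.4%. It overlaps AGPS on the other strand, which averaged 33.3 CPM.

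GCLC and GCLM, the members of glutathione synthesis, encode the catalytic (GCLC) and modifier (GCLM) subunits of glutamate-cysteine ligase, the rate-limiting enzyme. GCLM had 38.3, 52.3, 21.4 and 27.7 CPM in 23-GOLGA8N, 22-LAPTM4B, 21-CTPS2 and 20-ARSF, against 15.2 to 45.7 CPM (median 26.6) in unprefixed libraries. The groups overlapped, and 22-LAPTM4B was the highest of all 17. The fold change was log2 0.39 ± 0.251 (SE; edgeR adjusted p = 0.694). GCLM reads were divided almost evenly between GCLM-204, at 50.4%, and GCLM-201, at 49.6%, whose annotated 3′ ends differ. The share of GCLM-201 ran from 0% in GFP to 99.7% among the unprefixed libraries. GCLC, with 520 reads in all, had 5.73 to 10.9 CPM in the prefixed libraries and 0 (GFP) to 25.0 CPM (RFP) in the unprefixed ones. Its fold change was log2 -0.34 ± 0.503 (SE; edgeR adjusted p = 0.923). For both subunits the spread within the unprefixed group exceeded the difference between the groups.

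TXNRD1, the cytosolic thioredoxin reductase, had 21.4 to 26.1 CPM in prefixed libraries and 12.4 to 39.4 CPM in unprefixed ones, with LAPTM4B 1 lowest and Neg highest. Its prefix fold change was log2 -0.01 ± 0.275 (SE; edgeR adjusted p = 0.996). SRXN1, sulfiredoxin, which repairs over-oxidised peroxiredoxins, had 12.0 to 23.4 CPM in prefixed and 4.58 to 35.5 CPM in unprefixed libraries (log2 -0.16 ± 0.351 SE; edgeR adjusted p = 0.951). LAPTM4B 2 was lowest and GOLGA8N 2 highest for SRXN1.

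PRDX1, a peroxiredoxin that reduces hydrogen peroxide, had 728, 545, 716 and 814 CPM in 23-GOLGA8N, 22-LAPTM4B, 21-CTPS2 and 20-ARSF, against 700 to 935 CPM (median 809) in unprefixed libraries. Only 22-LAPTM4B lay under the unprefixed range. The means were 701 ± 113 CPM (SD, n = 4) in prefixed and 817 ± 72.4 CPM (SD, n = 13) in unprefixed libraries. The log2 fold change was -0.21 ± 0.107 (SE; edgeR adjusted p = 0.559, unadjusted 0.059), and the exact two-sided permutation test gave p = 0.042, or 0.474 adjusted over all genes. NQO1, a quinone reductase, had 57.0 to 79.3 CPM in prefixed and 38.2 (GFP) to 100.5 CPM (GOLGA8N 2) in unprefixed libraries (log2 -0.10 ± 0.193 SE; edgeR adjusted p = 0.946). NQO1-204, a transcript of 924 bases that ends upstream of NQO1-201, held 70.8% of NQO1 reads and 61.4% or more in every library.

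HMOX1, heme oxygenase, which opens the heme ring, was almost absent. It had 25 reads in all 17 libraries and 0 in 10 of them, among them the 3 control libraries and 3 of the 4 prefixed ones. E7 held 16 of these reads, or 3.98 CPM, above its floor of 0.747 CPM. No other library was above its own floor, and COL6A6 was the next highest at 0.803 CPM. HMOX1 had too few reads to pass the count filter in the edgeR comparisons given here. The other 8 members were not high together in E7, where 4 lay above and 4 below their median over the 17 libraries.

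What the members share in sequence was examined in RefSeq promoter windows (GRCh38.p14, from 250 bases before to 50 after a start site), which matched 7 of the 9 members in 11 windows. The letters of the antioxidant response element core, TGACNNNGC, were searched on both strands. Their first letters also begin the AP-1 motif TGACTCA. They stood in 3 of the 11 windows, those of TXNRD1 and GCLM, and in 13.3% of all 35116 windows. The 4 matches are shown with 10 bases on either side, on the strand that carries the motif and with the core in capitals, because these are the members whose windows hold these letters.
TXNRD1, GRCh38.p14 chr12:104215670-104215698, plus strand, centred 95 bases before the start: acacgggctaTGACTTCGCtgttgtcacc
TXNRD1, chr12:104215761-104215789, minus strand, centred 4 bases before the same start: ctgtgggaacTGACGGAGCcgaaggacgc
TXNRD1, chr12:104286920-104286948, minus strand, centred 98 bases before the downstream start: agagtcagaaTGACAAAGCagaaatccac
GCLM, chr1:93909446-93909474, plus strand, centred 30 bases before the start: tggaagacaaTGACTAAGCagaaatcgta
TXNRD1-203 and TXNRD1-212, which held 66.0% and 29.6% of TXNRD1 reads, have annotated starts at 104286682 and 104286990. The downstream window runs from 104286782 to 104287081, so the start of TXNRD1-203 lies before it and that of TXNRD1-212 inside it. The match in that window lies past the start of TXNRD1-203. A match is a description of the letters and not of a bound site, and no binding data were used here.

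The plasmid genes were compared next, each arm against the same 3 control libraries, in 1 fit, so that the comparisons of both arms share their controls. SQSTM1 had 218 CPM in 23-GOLGA8N and 133 and 192.5 CPM in the unprefixed libraries of that arm, against 152, 129 and 166.5 CPM in Neg, GFP and RFP. The arms overlapped. Its log2 fold change was 0.41 ± 0.262 (SE, 3 against 3 libraries; edgeR adjusted p = 0.94). SRXN1 had 21.2 CPM in 23-GOLGA8N and 24.9 and 35.5 CPM in the rest of the arm, against 21.7, 25.5 and 10.6 CPM in Neg, GFP and RFP (log2 0.71 ± 0.544 SE; edgeR adjusted p = 0.968). None of the 8 tested members passed in edgeR, DESeq2 or limma-voom, 0 lay under an unadjusted edgeR p of 0.05, and none had arms that did not overlap. Over all 11916 genes tested, edgeR called 0.0168%, an unadjusted p under 0.05 was reached by 5.68%, and 11.8% had arms that did not overlap.

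In the LAPTM4B arm SQSTM1 had 130, 172 and 289 CPM in LAPTM4B 1, LAPTM4B 2 and 22-LAPTM4B, against the same control values. LAPTM4B 2 and 22-LAPTM4B stood above all controls and LAPTM4B 1 did not, and the log2 fold change was 0.53 ± 0.261 (SE; edgeR adjusted p = 1.0, unadjusted 0.0557). With unprefixed labels only it was 0.12, with the prefix as a term 0.22, and without 22-LAPTM4B 0.12. NQO1 had 97.5, 84.7 and 79.3 CPM in LAPTM4B 1, LAPTM4B 2 and 22-LAPTM4B, against 72.5, 38.2 and 86.8 CPM in Neg, GFP and RFP (log2 0.48 ± 0.297 SE; edgeR adjusted p = 1.0, unadjusted 0.118). None of the 8 members was called in edgeR, DESeq2 or limma-voom, and 0 lay under an unadjusted edgeR p of 0.05. edgeR called 0 of 11916 genes in all (0.0%), with 3.94% under an unadjusted p of 0.05, and 10.1% had arms that did not overlap. DESeq2 called 1 gene and limma-voom 2.

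Between the plasmid genes, GOLGA8N over LAPTM4B was at log2 0.85 ± 0.528 for SRXN1 (SE; edgeR adjusted p = 1.0, unadjusted 0.125) and at -1.10 ± 0.817 for GCLC (SE; edgeR adjusted p = 1.0, unadjusted 0.195), the lowest p values among the members. The intervals were wide, from -0.19 to 1.88 for SRXN1, so that a difference of this size could not be told from 0 with 3 libraries an arm. None of the 8 members was called in edgeR, DESeq2 or limma-voom or lay under an unadjusted edgeR p of 0.05, where 0.00839% and 2.04% of all genes did. Arms did not overlap for 8.35% of all genes. The prefix difference was also compared between the plasmid genes, and none of the 8 members passed that interaction in edgeR, against 0.0501% of all genes tested.

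**Figure D3:**
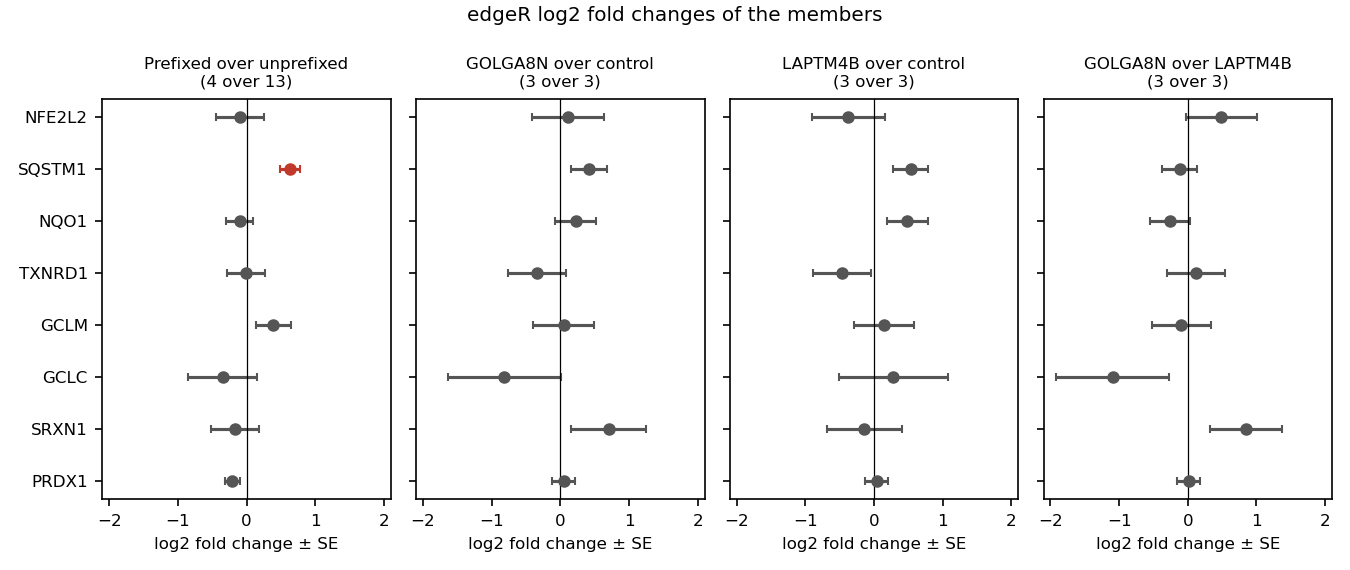
log2 fold change ± SE from edgeR for the 8 tested members in 4 comparisons, with the one that passed an adjusted p of 0.05 in red. SQSTM1 in prefixed over unprefixed libraries, at 0.64, is the only call, and the error bars are wider in the comparisons of 3 libraries with 3.

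The surrounding pathways were read from 8 lists with 101 genes, of which 93 were tested in the prefix comparison. FTH1 and SLC3A2 passed, both higher in prefixed libraries, that is 2 of 93 where 0.284% of all genes tested passed and 0.235% were higher. The lists were chosen with earlier results of these data known, so the shares given beside them are a description and no test of the lists. FTH1 encodes the ferritin heavy chain, which stores iron, and SLC3A2 the heavy chain of the cystine importer and of other amino acid transporters. Both are known as genes that oxidative or amino acid stress can raise. Of these 93 genes, 58 were at a positive and 35 at a negative log2 fold change, with a median of 0.07. Over all genes tested 47.8% were at a positive value and the median was -0.02.

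FTH1 had 1955, 2253, 2721 and 2068 CPM in 23-GOLGA8N, 22-LAPTM4B, 21-CTPS2 and 20-ARSF, against 1384 to 1857 CPM (median 1637) in unprefixed libraries. In CPM the groups did not overlap, which held in this direction for 0.203% of all genes tested. In the deposited TPM they did overlap. There 23-GOLGA8N, at 919 TPM, lay under Neg, LAPTM4B 2, RFP, GOLGA8N 2 and COL6A6, at 937.5 to 1006 TPM. The other prefixed libraries, at 1067 to 1382 TPM, lay above all unprefixed ones. The log2 fold change was 0.46 ± 0.091 (SE; edgeR adjusted p = 0.0178). The call was lost without 22-LAPTM4B (edgeR adjusted p = 0.13), without 21-CTPS2 (0.141) and on the 6 libraries of the GOLGA8N and LAPTM4B arms with plasmid gene as a term (log2 0.39, edgeR adjusted p = 0.281). FTL, the ferritin light chain, had 5200, 6100, 7198 and 5939 CPM in the same prefixed libraries, against 4192 to 6398 CPM (median 4996) in unprefixed ones, and missed the threshold at log2 0.30 ± 0.083 (SE; edgeR adjusted p = 0.127). Ferritin genes have many processed pseudogenes, with which the quantifier can exchange reads. Apart from ferritin, the list of iron and heme genes held 7 genes. None of these lay under an unadjusted p of 0.05, against 9.36% of all genes tested.

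SLC3A2 had 256, 252, 204 and 190 CPM in 23-GOLGA8N, 22-LAPTM4B, 21-CTPS2 and 20-ARSF, against 99.8 to 207 CPM (median 133) in unprefixed libraries, of which E7 and GFP lay above the lowest prefixed library. In the deposited TPM, 20-ARSF, at 147.5 TPM, lay under E7, GFP and ADORA2A, at 149.6 to 172.7 TPM. There 21-CTPS2, at 165 TPM, lay under E7 and GFP, and the other prefixed libraries lay above all unprefixed ones. The log2 fold change was 0.67 ± 0.15 (SE; edgeR adjusted p = 0.0377). The call was lost without 22-LAPTM4B (edgeR adjusted p = 0.297) or 23-GOLGA8N (0.236), and at an edgeR adjusted p of 0.0541 to 0.0696 without 21-CTPS2, LAPTM4B 2, RFP, GOLGA8N 1, LAPTM4B 1, COL6A6, Neg, TRPC5OS or TTR. On the 6 libraries of the GOLGA8N and LAPTM4B arms, with plasmid gene as a term, SLC3A2 was at log2 1.05 (edgeR adjusted p = 0.0104). The call was lost without the control arm (edgeR adjusted p = 0.0625) and with unmatched transcripts kept (0.056). Its partner in cystine import, SLC7A11, had 27.4, 42.0, 20.4 and 13.8 CPM in the same prefixed libraries and 4.82 to 25.5 CPM (median 11.8) in unprefixed ones, with E7 the highest unprefixed library. It missed the threshold at log2 1.04 ± 0.339 (SE; edgeR adjusted p = 0.245). Among the 17 tested genes of the glutathione list, 8 were at a positive and 9 at a negative log2 fold change. Under an unadjusted p of 0.05 lay 4 of them, against 9.36% of all genes tested.

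**Figure D4:**
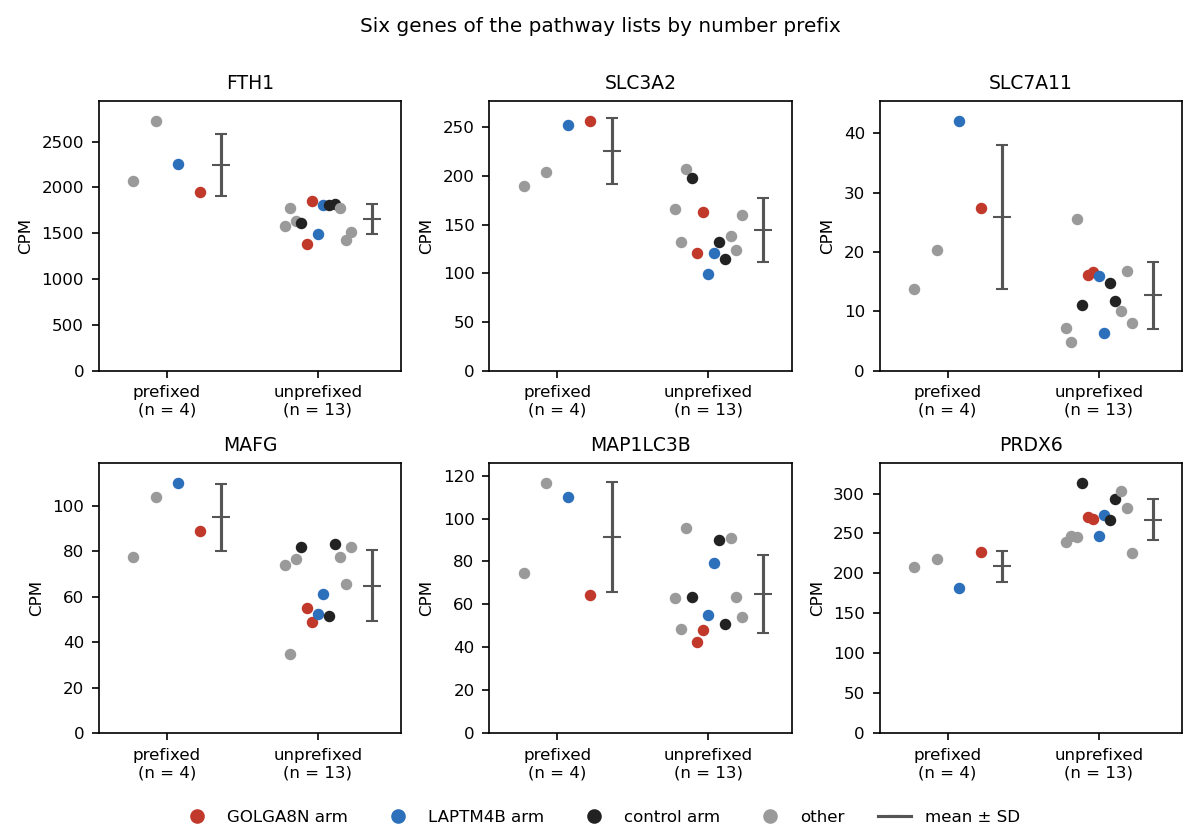
Level in CPM (linear axis from 0) of 6 pathway genes in the 4 prefixed and 13 unprefixed libraries, 1 point per library, with mean ± SD. FTH1 lies at 1955 to 2721 CPM in prefixed libraries, above the 1384 to 1857 CPM of all unprefixed ones, and PRDX6 is the gene shown with the lower prefixed mean.

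The autophagy partners of SQSTM1 were mostly at positive values without a call. Of 13 tested, 12 were at a positive log2 fold change, with a median of 0.33, and 4 lay under an unadjusted p of 0.05, which 9.36% of all genes tested did. MAP1LC3B, a ubiquitin-like protein of the autophagosome membrane that p62 binds, was at log2 0.51 ± 0.191 (SE; edgeR adjusted p = 0.353), with 64.5 to 116 CPM in prefixed and 42.3 to 95.7 CPM in unprefixed libraries. GABARAPL2, of the same protein family, was at log2 0.37 ± 0.146 (SE; edgeR adjusted p = 0.39). The list of regulators mixed KEAP1, which acts against NRF2, with small MAF partners and relatives of NFE2L2, so a shared sign has no single reading. It was at a positive value for 9 of 10, with a median of 0.30 and 1 unadjusted p under 0.05. MAFG, a small MAF partner of NRF2, had 88.8, 110, 104 and 77.5 CPM in 23-GOLGA8N, 22-LAPTM4B, 21-CTPS2 and 20-ARSF, against 35.0 to 83.3 CPM in unprefixed libraries (log2 0.57 ± 0.179 SE; edgeR adjusted p = 0.223). MAFF, another small MAF protein, had 8.35 to 22.6 CPM in prefixed and 1.61 to 21.9 CPM in unprefixed libraries.

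In the thioredoxin and peroxiredoxin list 7 of 13 tested genes were at a positive value, with a median of 0.02 and no call, and 5 lay under an unadjusted p of 0.05, against 9.36% of all genes tested. PRDX6 had 227 CPM in 23-GOLGA8N and 182 CPM in 22-LAPTM4B, the highest and lowest prefixed libraries, against 226 to 313 CPM (median 269) in unprefixed ones (log2 -0.34 ± 0.109 SE; edgeR adjusted p = 0.245). PRDX3, a mitochondrial peroxiredoxin, was at log2 -0.53 ± 0.197 (SE; edgeR adjusted p = 0.359). PRDX1 was at -0.21 as given above, PRDX4 at -0.37 ± 0.160 (SE; edgeR adjusted p = 0.453), PRDX2 at -0.07 and PRDX5 at 0.02. Of 10 genes of NADPH supply, which feeds both reductase systems, 9 were at a positive value with a median of 0.16, with PGD of the pentose phosphate pathway at log2 0.22 ± 0.122 (SE), and none under an unadjusted p of 0.05. The detoxification and export list was at a positive value for 6 of 16 and under an unadjusted p of 0.05 for 1, with OSGIN1 at log2 2.14 ± 1.00 (SE) on 2.31 to 6.85 CPM in prefixed and 0 to 3.91 CPM in unprefixed libraries, and CBR1, a carbonyl reductase, at 5.49 ± 1.51 CPM (SD, n = 4) and 9.10 ± 4.69 CPM (SD, n = 13). Of 5 tested superoxide and peroxide genes 1 was at a positive value and 1, SOD1, under an unadjusted p of 0.05, with SOD1 at log2 -0.27 ± 0.119 and PARK7 at -0.21 ± 0.136 (SE).

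**Figure D5:**
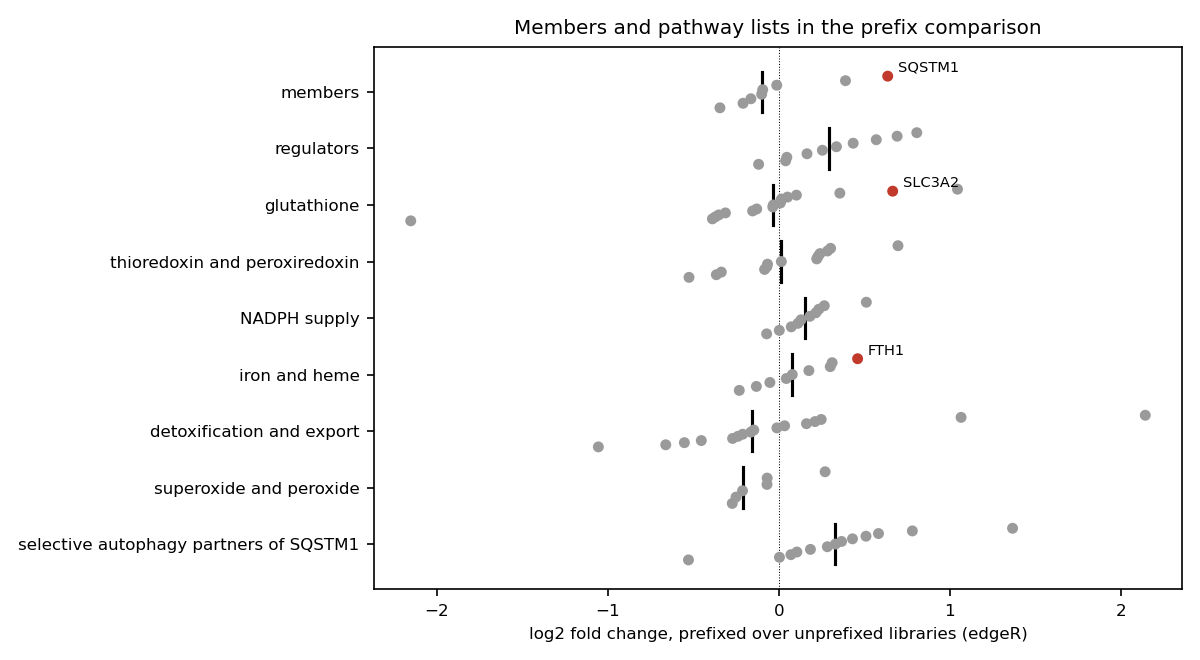
edgeR log2 fold change of prefixed over unprefixed libraries for each tested gene (points), by list, with the list's median as a bar and genes past an adjusted p of 0.05 in red and named. SQSTM1, SLC3A2 and FTH1 are the genes called; the autophagy partners and the regulators have medians of 0.33 and 0.30, and the members a median of -0.10.

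No pathway gene passed in the comparisons of the arms. In the GOLGA8N arm against control 50 of 91 tested were at a positive value (median 0.03, against 0.01 over all genes), and 5 lay under an unadjusted edgeR p of 0.05, which 5.68% of all genes did. In the LAPTM4B arm 55 of 91 were (median 0.09 against 0.02), with 2 under an unadjusted edgeR p of 0.05, against 3.94% of all genes. Between the arms 36 of 91 were, with 1 under an unadjusted edgeR p of 0.05, MAP1LC3B, against 2.04% of all genes.

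Among 5008 genes averaging at least 20 CPM, the one whose levels followed SQSTM1 most closely over the 17 libraries was FTH1, by rank correlation of log2(CPM + 1). It is the highest of 5008 values over libraries that share the prefix structure, and is a description only. By the same rule the nearest gene was APOO for NQO1, AP2M1 for TXNRD1, GDI2 for GCLM, PPAN for PRDX1, DSG2 for NFE2L2, POLR1A for GCLC and AGO2 for SRXN1. No member was the nearest gene of another. Over single libraries, GOLGA8N 2 was the highest of 17 for NFE2L2, NQO1 and SRXN1, 22-LAPTM4B was the highest for SQSTM1 and GCLM and the lowest for PRDX1, and UBE2V1 was the lowest for NFE2L2 and SQSTM1.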

How the data were processed

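The members and the gene lists were chosen with earlier results of these data known. The deposited files list 228297 transcripts with estimated counts and TPM in Salmon's layout, per the file headers. The TPM were computed by that quantifier, per the file headers. Tools listed in the submitters' processing notes were featureCounts, UMI-tools, Salmon 0.7.2 and STAR, with the builds GRCh38 and hg38. The collapsing of reads by their 12 bp molecular identifier and the strand setting are not given in the sources used, so overlapping genes are uncertain. Estimated counts were summed over the 205336 transcripts matched by identifier to GENCODE 29 (GRCh38). The other transcripts held 3.32% to 3.6% of reads, name no gene here and stayed out. Sums were rounded for tests, and CPM use reads in genes. Floors of 3 reads cover counting error only.

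Tests used edgeR 4.0.16 under R 4.3.3 (TMM normalization, filterByExpr, robust quasi-likelihood test, Benjamini-Hochberg over all genes tested, threshold 0.05). Intervals cover 95%. The prefix comparison used all 17 libraries, the arms 9 libraries in 1 fit. Permutation tests enumerated 2380 regroupings of log2(CPM + 1), the smallest p being 0.00084. Tested on simulated counts, the prefix fit recovered 24 of 50 genes changed 2-fold and 10 of 50 changed 1.5-fold, and the GOLGA8N fit 6 of 49 and 0 of 50. Alternatives were DESeq2 1.42.0, limma-voom (limma 3.58.1), other size factors and filters, unmatched transcripts kept, other sets of libraries, the prefix as a term and each library left out. Named were the members, list genes called in any comparison, the 2 of each list with the lowest p for the prefix, and the nearest gene of each member; 1 gene under this rule is not reported here. PRDX2, PRDX4, PRDX5, AGPS and the marker genes were named after their values were seen. One listed symbol had 2 gene identifiers in the annotation and was left out.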

Additional observations from a re-analysis of the deposited data

Results flagged for a closer look

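NFE2L2 and SRXN1 differed with the prefix in opposite directions in the GOLGA8N and LAPTM4B labels. NFE2L2 had 10.1 CPM in 23-GOLGA8N, under the 20.8 and 32.9 CPM of GOLGA8N 1 and 2, and 22.8 CPM in 22-LAPTM4B, over the 6.33 and 16.6 CPM of LAPTM4B 1 and 2. The interaction of prefix and plasmid gene, on 1 prefixed against 2 unprefixed libraries for each gene, was log2 -2.46 ± 0.966 (SE; edgeR adjusted p = 0.951, unadjusted 0.0135). SRXN1 had 21.2 CPM in 23-GOLGA8N, under the 24.9 and 35.5 CPM of GOLGA8N 1 and 2, and 23.4 CPM in 22-LAPTM4B, over the 17.3 and 4.58 CPM of LAPTM4B 1 and 2, with an interaction of log2 -1.67 ± 0.910 (SE; edgeR adjusted p = 1.0, unadjusted 0.0725). Neither passed the interaction over all 13981 genes tested, of which 0.0501% did. The share of all genes with such an order of libraries was not counted, so both flags are a description only.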

How the results depend on the processing

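In the prefix comparison SQSTM1 kept its direction in all 27 alternatives and its call in 14. The fit without GFP, which kept the call, is entered 2 times in both counts. Besides the libraries already named, the call was lost with unmatched transcripts kept (log2 0.64, edgeR adjusted p = 0.056) and without the control arm (0.60, 0.0704), and the lowest adjusted p over the alternatives was 0.00428. The other results of the members, SQSTM1 in the arm comparisons included, stayed uncalled in all 658 settings tried, in which the prefix fit without GFP is again entered 2 times. Their sign was not always kept. SQSTM1 kept it in all 19 settings of either arm against control and in 16 of 21 between the arms. TXNRD1 kept it in 17 of 27 settings for the prefix. Genes called for the prefix were 35 in the fit reported, 124 by DESeq2, 557 with no filter, 23 with unmatched transcripts, 73 with plasmid gene as a term, 20 without the control arm, and 2 to 102 with 1 library left out. For the GOLGA8N arm, edgeR called 2, against 14 by DESeq2, 4 by limma-voom, 1 with library totals, 42 with no filter, 1 with at least 20 reads, 19 with all 17 libraries, 6 with the prefix as a term, 7 with unprefixed labels, and 1 to 6 with 1 library left out. For the LAPTM4B arm the counts were 0, 1 by DESeq2, 2 by limma-voom, 24 with no filter, 4 with all 17 libraries, 2 with unprefixed labels, and 0 to 1 with 1 library left out. Between the arms they were 1, 2 by DESeq2, 0 by limma-voom, 9 with no filter, 3 with unmatched transcripts, 4 with all 17 libraries, 2 with unprefixed labels, and 1 to 3 with 1 library left out. Scaling by library totals moved the median log2 of all genes to -0.14 in the GOLGA8N and -0.12 in the LAPTM4B comparison. The cause of these moves was not tested. On the libraries titled 1 and 2, edgeR called 2 genes with the replicate block and 2 without it. Deviations of libraries with the same number correlated at 0.15 across 5009 genes, and with 2 pairs this does not show that the numbers pair the samples. Reads were fewest for HMOX1, GCLC and SRXN1, at 25, 520 and 933 in all.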
